A study of Homo sapiens with 66 samples.

Results

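The genes of the aryl hydrocarbon receptor pathway described here are 7 of the 58051 genes counted in human DLD-1 cells whose nuclear pore or RNA export proteins were destroyed with auxin. They are the receptor AHR, its partner ARNT, the repressors AHRR and TIPARP, the enzymes CYP1A1 and CYP1B1, and CYP1B1-AS1, an antisense transcript of the CYP1B1 locus. They were chosen by name, after earlier results of these data had shown that several of them were higher with auxin. Their differences between auxin and untreated cells are therefore given as a description, with a log2 fold change (auxin minus untreated) and its standard error (SE) and with no test. All 7 passed the filter on low counts, as did 17812 genes in all.

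The aryl hydrocarbon receptor is a transcription factor that waits in the cytoplasm with chaperones until a small molecule binds it, and then enters the nucleus, pairs with ARNT and binds DNA with a short core motif. Its ligands include dioxins, polycyclic hydrocarbons and indoles derived from tryptophan, and in the intestinal lining it answers to dietary and microbial indoles. Its best known target is CYP1A1, an enzyme that oxidises many of these ligands, and 2 further targets, AHRR and TIPARP, act back on the receptor as repressors.

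DLD-1 is a colorectal adenocarcinoma line. In each tagged line CRISPR/Cas9 had placed an auxin-inducible degron (AID) on both alleles of 1 gene, so that auxin, at 1 mM, leads to loss of that protein. The tagged proteins are TPR, NUP153 and NUP50 of the nuclear basket, RANGAP1 of Ran-dependent transport, the mRNA export receptor NXF1, and GANP of the TREX-2 export complex (gene MCM3AP). RNA was sequenced in 66 libraries that fall into 22 groups of 3. Untreated cells were compared with auxin for 2 h (AID-TPR, AID-TPR old, NUP153-AID, RANGAP1-AID, AID-NXF1) or 3 h (NUP50-AID, AID-GANP), and for 8 h (AID-TPR old, NUP153-AID, RANGAP1-AID) or 9 h (NUP50-AID). AID-TPR old is a separate set of AID-TPR libraries whose replicates the labels name old1, old2 and old3. AID-TPR cells were also given actinomycin D (ActD), an inhibitor of RNA synthesis, for 2 h with and without auxin. Parental DLD-1 cells, with no tag, have an untreated and a 2 h auxin group. Tagged cells also carry the plant ubiquitin ligase subunit TIR1 at the RCC1 locus. The results come from 1 edited line for each protein, and in tagged lines the auxin molecule and the loss of the protein cannot be told apart, since all their auxin libraries had both. Natural plant auxin is itself an indole.

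Several facts of the whole series touch the values below. Totals ranged from 18943661 to 55411411 counts per library (median 32285399). All 6 markers of colon epithelium were above 1 CPM (TMM-normalised counts, scaled to a library of 1000000 counts) in every library, and 7 of 8 markers of other cells were below 1 CPM in every library. The mRNA of the tagged gene differed by at most 0.29 on the log2 scale in its own line, which checks nothing, since the degron acts on the protein. In 33 libraries (AID-NXF1, AID-GANP, AID-TPR without old, RANGAP1-AID and DLD-1) reads that overlap several genes were counted for each, and in the other 33 they were not. Levels of AHR, AHRR, CYP1B1 and CYP1B1-AS1 are therefore compared only between libraries counted in the same way. The strongest case is AHR, whose same-strand overlapping gene ENSG00000283321 was at 122 to 290.2 CPM in the first 33 libraries and at 0 in the others. In bulk RNA, more transcript in each cell and more cells with the transcript cannot be told apart.

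The labels of some libraries are in doubt. For parental DLD-1 cells, the labels and a supplementary table of the study give opposite treatments to the same 2 groups, so these libraries are called by their labels and no direction is drawn from them. In AID-TPR old, 38 genes were at least 1 log2 unit higher at 8 h than at 2 h in both old1 and old3, and 0 of the 38 were higher in old2. Another 103 were lower at 8 h in old1 and old3, and 0 of the 103 were lower in old2. The libraries labelled old2 are kept under their labels, and results that rest on them are also given without them.

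The motif that the receptor and ARNT bind has the core GCGTG. In RefSeq promoters (GRCh38.p14, 250 bases before to 50 after the start), GCGTG on either strand stood in 36.5% of 35116 promoters. It stood in 5 of the 6 members that have a promoter in the table, ARNT having none and CYP1B1 no entry. Some members have several promoters, and counted by promoter, as the 36.5% is, it stood in 6 of 9. The longer form TNGCGTG stood in 5.51% of all promoters and in 2 of the 9, that of CYP1B1-AS1 and the first of AHRR. These matches are a description of letters, not of binding, and the classical response elements of CYP1A1 are known to lie farther upstream than this window. The AHR match lies 37 bases after the start. The 250 bases upstream of the start, 5′ to 3′ on the transcribed strand, are shown for 1 target and 1 repressor, chosen for their large differences with auxin, and for the pair of members with the longer form. The core motif, in either direction, is in capitals.
CYP1A1, chr15:74725529-74725778, minus strand: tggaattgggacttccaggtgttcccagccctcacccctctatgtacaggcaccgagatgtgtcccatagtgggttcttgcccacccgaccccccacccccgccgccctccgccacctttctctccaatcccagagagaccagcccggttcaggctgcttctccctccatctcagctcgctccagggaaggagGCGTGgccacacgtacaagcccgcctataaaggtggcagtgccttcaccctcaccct
TIPARP, chr3:156674340-156674589, plus strand: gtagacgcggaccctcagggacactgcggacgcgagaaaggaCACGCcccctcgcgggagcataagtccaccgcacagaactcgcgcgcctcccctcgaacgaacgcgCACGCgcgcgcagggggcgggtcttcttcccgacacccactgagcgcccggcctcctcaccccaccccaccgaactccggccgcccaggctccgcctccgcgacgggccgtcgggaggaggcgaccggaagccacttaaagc
AHRR, chr5:321464-321713, plus strand: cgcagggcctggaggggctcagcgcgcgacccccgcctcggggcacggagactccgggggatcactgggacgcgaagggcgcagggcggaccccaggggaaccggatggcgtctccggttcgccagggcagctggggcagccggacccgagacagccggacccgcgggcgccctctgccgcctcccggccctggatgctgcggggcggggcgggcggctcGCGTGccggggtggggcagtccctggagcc
CYP1B1-AS1, chr2:38130855-38131104, plus strand: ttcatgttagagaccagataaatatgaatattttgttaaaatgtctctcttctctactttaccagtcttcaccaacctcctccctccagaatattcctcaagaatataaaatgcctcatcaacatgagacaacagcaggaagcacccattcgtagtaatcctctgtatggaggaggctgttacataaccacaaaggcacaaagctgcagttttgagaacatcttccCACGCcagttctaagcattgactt
The CYP1A1 match begins 57 bases before the start, the match in the first AHRR entry 30 bases and the CYP1B1-AS1 match 24 bases before it. A second AHRR entry, not shown, holds 2 matches, 247 and 42 bases before its start. The first TIPARP entry holds 2 matches, 208 and 142 bases before the start, while its other entries, 2 in number, hold none.

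At 2 or 3 h with auxin, all auxin libraries of CYP1A1, TIPARP and CYP1B1-AS1 were above all untreated ones in 7 of 7 comparisons of tagged lines. CYP1B1 was so in 6 and AHRR in 5, while AHR and ARNT were so in 1 each. Counted over the 7 genes, the members whose libraries did not overlap stand beside the same share over all 17812 tested genes. Beside it is given the share of genes called in that comparison, a call being a Benjamini-Hochberg adjusted p under 0.05 in edgeR's quasi-likelihood test with a change of 1.3-fold or more upwards, or to 0.7 or less. Since the members were chosen on these contrasts, nothing is read from these counts. In NUP153-AID cells at 2 h, 5 of 7 members had all auxin libraries higher, where 4.71% of all genes did, and 0.0393% of genes were called. In RANGAP1-AID cells at 2 h it was 5 of 7 against 6.33% (0.589% called), and in NUP50-AID cells at 3 h 5 of 7 against 5.61% (0.219% called). AID-TPR old cells at 2 h had 5 of 7 against 7.23% (0.455% called), and AID-TPR cells 4 of 7 against 7.39% (0.511% called). In the export lines far more genes differed. AID-NXF1 cells had 3 of 7 against 20.5% (8.16% called) and AID-GANP cells 7 of 7 against 21.6% (15.5% called). At the late times the members higher numbered 4 of 7 in AID-TPR old cells (13.6% of genes, 3.61% called), 5 in RANGAP1-AID cells (21.9%, 14.9% called), 2 in NUP153-AID cells (10.6%, 1.34% called) and 0 in NUP50-AID cells (11.3%, 0.371% called). Members with all auxin libraries lower numbered 3 in NUP153-AID cells at 8 h (8.35% of genes) and 2 in NUP50-AID cells at 9 h (10%). They numbered 2 in RANGAP1-AID cells at 8 h (20.3%), 1 in NUP50-AID cells at 3 h (6.56%) and 0 in the other tagged comparisons. The median log2 fold change of the 7 genes ran from 0.23 (AID-NXF1 at 2 h) to 2.37 (RANGAP1-AID at 2 h) at the early times and from 0.18 (NUP153-AID) to 1.26 (AID-TPR old) at the late ones, where the median of all genes lay between -0.01 and 0.01.

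AHR, the receptor, lies at chr7:16916359-17346152 on the plus strand (ENSG00000106546, GRCh38, GENCODE). Its level differed little with auxin. The log2 fold change lay between -0.39 and 0.26 over 11 comparisons of tagged lines, and auxin and untreated libraries overlapped in 7 of them. In AID-GANP cells AHR was at 324, 331 and 333 CPM untreated and 410.0, 424 and 356 CPM after 3 h, the only comparison in which all auxin libraries were higher. Later, the order was the other way. RANGAP1-AID cells had 248, 262 and 222 CPM untreated, 227, 235 and 225 CPM at 2 h and 196, 194 and 169.9 CPM at 8 h. NUP153-AID cells had 107, 94.7 and 118 CPM untreated, 115, 102 and 114 CPM at 2 h and 91.1, 74.7 and 81.2 CPM at 8 h. In both lines and in NUP50-AID cells at 9 h (log2 fold change -0.26 ± 0.08), every late library was below every untreated one.

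ARNT, the nuclear partner of the receptor, lies at chr1:150809713-150876708 on the minus strand (ENSG00000143437). Its log2 fold changes spanned the narrowest range of the 7 genes, and its group means lay between 25.6 and 42.0 CPM over all 22 groups. The log2 fold changes lay between -0.23 and 0.14. Auxin libraries were all higher in 1 of 11 comparisons, AID-GANP at 3 h (0.06 ± 0.07), a sign that turned to -0.05 when library sizes alone were used for scaling, which moved the median of all genes there by -0.11. They were all lower in 4, of which NUP50-AID at 9 h was the largest (-0.23 ± 0.08).

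AHRR, the repressor that competes with AHR for ARNT, lies at chr5:321714-438291 on the plus strand (ENSG00000063438). All auxin libraries were above all untreated ones in 8 of 11 comparisons. The largest difference was in NUP50-AID cells, with 7.15, 6.15 and 10.4 CPM untreated and 18.7, 21.6 and 19.2 CPM at 3 h (1.33 ± 0.17). By 9 h these cells were at 9.46, 9.34 and 10.2 CPM, within the spread of the untreated libraries. RANGAP1-AID cells differed from this course, with 37.4, 38.2 and 42.1 CPM untreated, 52.4, 50.3 and 55.5 CPM at 2 h and 73.8, 76.1 and 85.9 CPM at 8 h. There each time stood above the one before it without overlap. In AID-TPR cells AHRR was at 41.9, 38.3 and 39.8 CPM untreated and 48.6, 38.2 and 42.5 CPM with auxin, and the groups overlapped.

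TIPARP, a mono-ADP-ribosyltransferase that modifies AHR and dampens it, lies at chr3:156673235-156706770 on the plus strand (ENSG00000163659). All auxin libraries were above all untreated ones in 7 of 7 comparisons at 2 or 3 h. AID-GANP cells reached the highest group mean, from 133, 98.1 and 68.4 CPM to 444, 409 and 353 CPM (2.00 ± 0.20). AID-TPR cells went from 168, 154 and 152 CPM to 399, 453 and 341 CPM (1.33 ± 0.10). In AID-NXF1 cells the step was small, from 159, 156 and 95.5 CPM to 216, 238 and 246 CPM (0.75 ± 0.15).

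Outside the TPR line, the late libraries of TIPARP were near the untreated level or below it. In RANGAP1-AID cells TIPARP was at 51.5, 54.7 and 50.2 CPM untreated, 266, 283 and 273 CPM at 2 h and 62.5, 68.1 and 63.1 CPM at 8 h, the last still above all untreated libraries. In NUP153-AID cells it was at 84.4, 85.8 and 86.8 CPM, 284, 249 and 304 CPM and 49.8, 67.1 and 55.7 CPM at the same times. The last 3 libraries lay below all untreated ones (-0.58 ± 0.09). NUP50-AID cells had 64.6, 74.8 and 88.0 CPM untreated, 172, 159 and 199 CPM at 3 h and 70.8, 65.2 and 68.7 CPM at 9 h, the last overlapping the first.

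CYP1A1 lies at chr15:74719542-74725536 on the minus strand (ENSG00000140465). It had the largest differences of the 7 genes in each tagged comparison. All auxin libraries exceeded all untreated ones in 7 of 7 comparisons at 2 or 3 h and in 3 of 4 at 8 or 9 h. Untreated group means ran from 2.57 to 68.0 CPM, group means at 2 or 3 h from 138 to 400.3 CPM, and those at 8 or 9 h from 17.0 to 198 CPM.

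**Figure D1:**
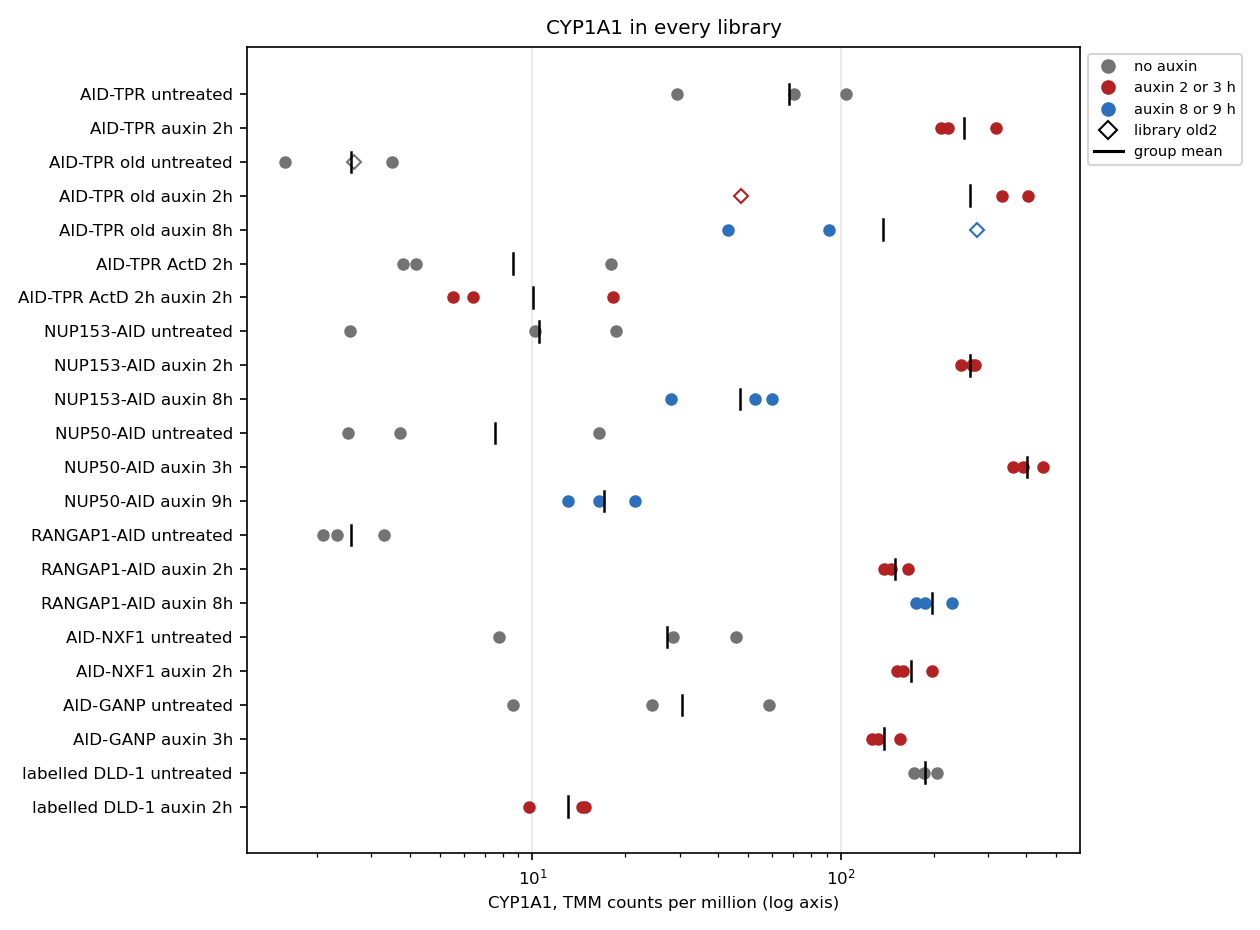
CYP1A1 level in each of the 66 libraries, as TMM-normalised CPM on a log axis, with 1 row per group. Points are libraries, open diamonds the libraries labelled old2 and short lines group means. Untreated tagged groups sit to the left of their auxin groups, and the group labelled DLD-1 untreated sits at 172 to 206 CPM.

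NUP50-AID and NUP153-AID cells started at untreated group means of CYP1A1 of 7.56 and 10.5 CPM. In NUP50-AID cells CYP1A1 was at 2.53, 3.71 and 16.4 CPM untreated, 389, 451 and 360.4 CPM at 3 h and 21.5, 13.1 and 16.5 CPM at 9 h. The 3 h libraries are the highest group of the series (5.71 ± 0.48), and the 9 h libraries overlapped the untreated ones (1.14 ± 0.48). Untreated replicate 3 stood apart at 16.4 CPM, and without it the log2 fold change was 7.02 at 3 h and 2.44 at 9 h. NUP153-AID cells had 10.2, 18.7 and 2.57 CPM untreated, 246, 273 and 266 CPM at 2 h and 28.2, 59.98 and 52.7 CPM at 8 h. Their 8 h libraries were below the 2 h ones and above the untreated ones without overlap (4.64 ± 0.48 at 2 h and 2.16 ± 0.50 at 8 h).

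RANGAP1-AID cells, at 3.30, 2.32 and 2.10 CPM untreated, started as low as AID-TPR old cells, whose untreated libraries they overlapped. They were at 145, 138 and 165 CPM at 2 h and 188, 175 and 229.6 CPM at 8 h. The replicates were close together, the log2 fold changes were 5.86 ± 0.16 and 6.28 ± 0.17, and all 8 h libraries were above all 2 h libraries. In the other lines with a late time, TPR apart, the late libraries were below the early ones.

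AID-TPR old cells were at 3.51, 2.64 and 1.58 CPM untreated, 404, 47.3 and 334 CPM at 2 h and 91.3, 277 and 43.0 CPM at 8 h, in the order old1, old2, old3. All auxin libraries were at least 12.25 times the highest untreated one, but old2 was low at 2 h and high at 8 h where old1 and old3 were the reverse. The log2 fold changes were 6.68 ± 0.76 at 2 h and 5.76 ± 0.70 at 8 h, and without the old2 libraries, untreated too, 7.21 ± 0.38 and 4.70 ± 0.43. The second set of AID-TPR libraries was at 104, 29.5 and 70.4 CPM untreated and 318, 212 and 222 CPM at 2 h (1.88 ± 0.35).

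The export lines resembled the second AID-TPR set in having a high and uneven untreated level. AID-NXF1 cells were at 45.7, 28.5 and 7.80 CPM untreated and 152, 159 and 197 CPM at 2 h (2.61 ± 0.39). AID-GANP cells were at 58.5, 24.3 and 8.63 CPM untreated and 132, 156 and 126 CPM at 3 h (2.17 ± 0.47). The 3 smallest early log2 fold changes, AID-TPR, AID-GANP and AID-NXF1, belonged to the 3 line sets with the highest untreated means. The untreated mean is itself a term of the log2 fold change, so this order is partly arithmetic and nothing is read from it. Group means after auxin for 2 or 3 h spanned 2.91-fold, against 26.4-fold for the untreated means. Over the order of all 22 group means of CYP1A1, neighbouring groups overlapped in their libraries at each of the 21 steps.

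CYP1B1, a related enzyme that acts mainly outside the liver, lies at chr2:38066973-38109902 on the minus strand (ENSG00000138061). All auxin libraries were above all untreated ones in 6 of 7 comparisons at 2 or 3 h and in 1 of 4 later. RANGAP1-AID cells had 18.2, 18.8 and 21.5 CPM untreated, 80.5, 98.5 and 125 CPM at 2 h and 95.0, 113 and 141 CPM at 8 h. That late difference (2.57 ± 0.14) was the only one without overlap at 8 or 9 h. NUP50-AID cells had 18.8, 21.4 and 34.5 CPM untreated, 110.3, 77.0 and 92.5 CPM at 3 h and 36.1, 26.3 and 28.3 CPM at 9 h. NUP153-AID cells had 28.0, 31.3 and 27.1 CPM, 84.9, 80.5 and 103 CPM and 27.3, 34.4 and 36.4 CPM at 0, 2 and 8 h. In both lines the late libraries overlapped the untreated ones. AID-NXF1 cells overlapped at 2 h, with 61.2, 59.5 and 42.0 CPM untreated and 54.2, 60.1 and 79.6 CPM with auxin (0.23 ± 0.15).

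CYP1B1-AS1, a long noncoding RNA, lies at chr2:38073447-38231651 on the plus strand (ENSG00000232973) and overlaps CYP1B1 on the other strand. The strand setting of the counting is not given in the sources used here, so reads of one can have been counted for the other, most of all where overlapping genes shared reads. All auxin libraries were above all untreated ones in 9 of 11 comparisons. RANGAP1-AID cells had 6.68, 6.15 and 7.14 CPM untreated, 30.2, 31.5 and 42.3 CPM at 2 h and 32.9, 38.7 and 43.9 CPM at 8 h, log2 fold changes of 2.37 and 2.53 beside 2.37 and 2.57 for CYP1B1. NUP50-AID cells, counted without shared reads, had 2.41, 2.04 and 3.53 CPM untreated, 9.21, 7.82 and 8.75 CPM at 3 h and 4.27, 2.80 and 4.19 CPM at 9 h (1.69 ± 0.19 at 3 h). The difference was thus present under both ways of counting.

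**Figure D2:**
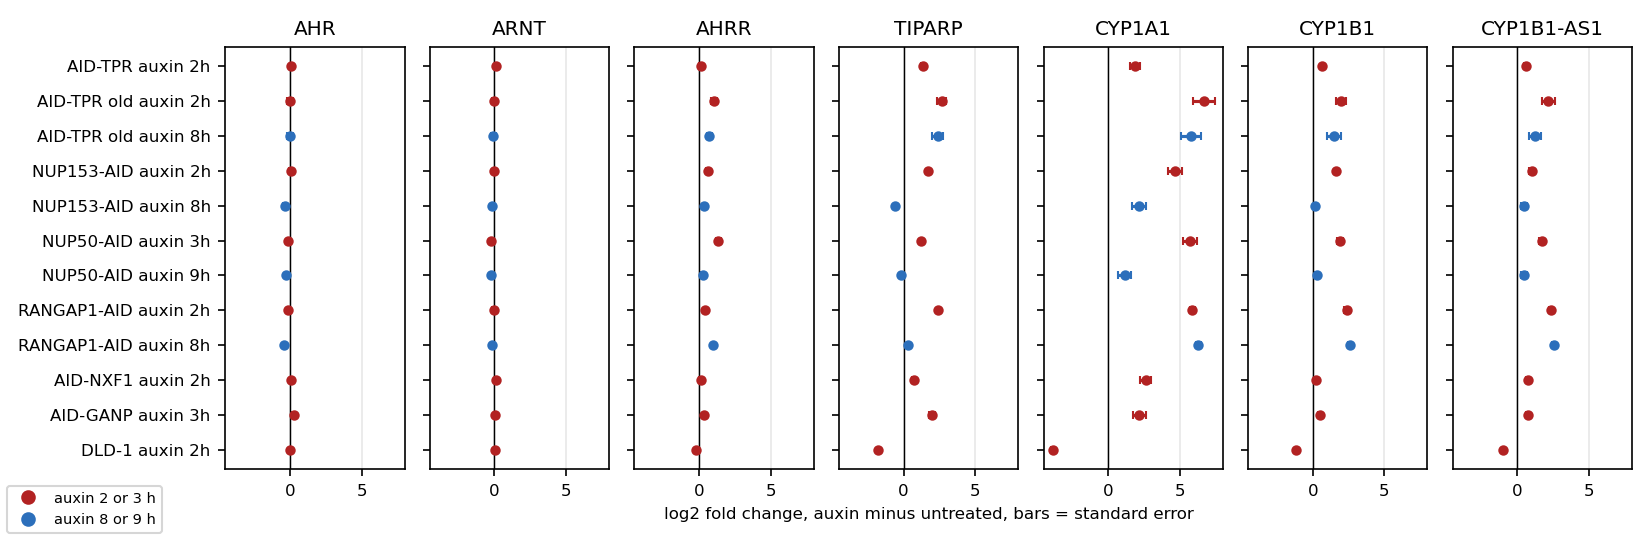
Log2 fold change of each of the 7 genes, auxin minus untreated, in 12 comparisons, with standard errors from edgeR as bars. Colours mark auxin for 2 or 3 h and for 8 or 9 h. AHR and ARNT lie between -0.39 and 0.26, CYP1A1 spans 1.14 to 6.68 in tagged lines, and the bottom row, DLD-1 by its labels, lies to the left of 0 for 5 genes.

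Per kilobase of exon, the genes can be set against each other within a group. In untreated RANGAP1-AID cells CYP1A1 stood at 0.766 ± 0.191 CPM per kb, below AHRR at 4.14 ± 0.267 and TIPARP at 10.9 ± 0.480. At 2 h CYP1A1 stood at 44.4 ± 4.21 CPM per kb, beside 57.1 ± 1.79 for TIPARP, 16.8 ± 3.69 for CYP1B1 and 5.56 ± 0.276 for AHRR. In NUP50-AID cells at 3 h CYP1A1 stood at 119 ± 13.7 CPM per kb and TIPARP at 36.8 ± 4.26. Untreated NUP50-AID cells had 2.25 ± 2.29 and 15.8 ± 2.45 CPM per kb, so CYP1A1 passed from below TIPARP to above it there, while in RANGAP1-AID cells it was still below at 2 h. At 8 h it stood above TIPARP there too, at 58.8 ± 8.45 against 13.5 ± 0.646 CPM per kb.

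The early and late libraries of a line show 2 courses. The share of all genes with such an order was not computed, so nothing is read from the counts of members below. In NUP153-AID cells all 8 h libraries were below all 2 h libraries for 6 of the 7 genes, ARNT overlapping. CYP1A1 was at 0.179 of its 2 h mean, TIPARP at 0.206 and CYP1B1 at 0.366. In NUP50-AID cells the 5 genes other than AHR and ARNT were lower at 9 h than at 3 h without overlap, with CYP1A1 at 0.0425 of its 3 h mean. In RANGAP1-AID cells CYP1A1 and AHRR were higher at 8 h than at 2 h without overlap, at 1.32 and 1.49 of the 2 h means. CYP1B1, CYP1B1-AS1 and ARNT overlapped there, and TIPARP was at 0.236 of its 2 h mean. TIPARP and CYP1A1 therefore parted in RANGAP1-AID cells and were both lower late in NUP153-AID and NUP50-AID cells. Each line set with a late time has 1 untreated group, so time in culture cannot be told apart from time with auxin.

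**Figure D3:**
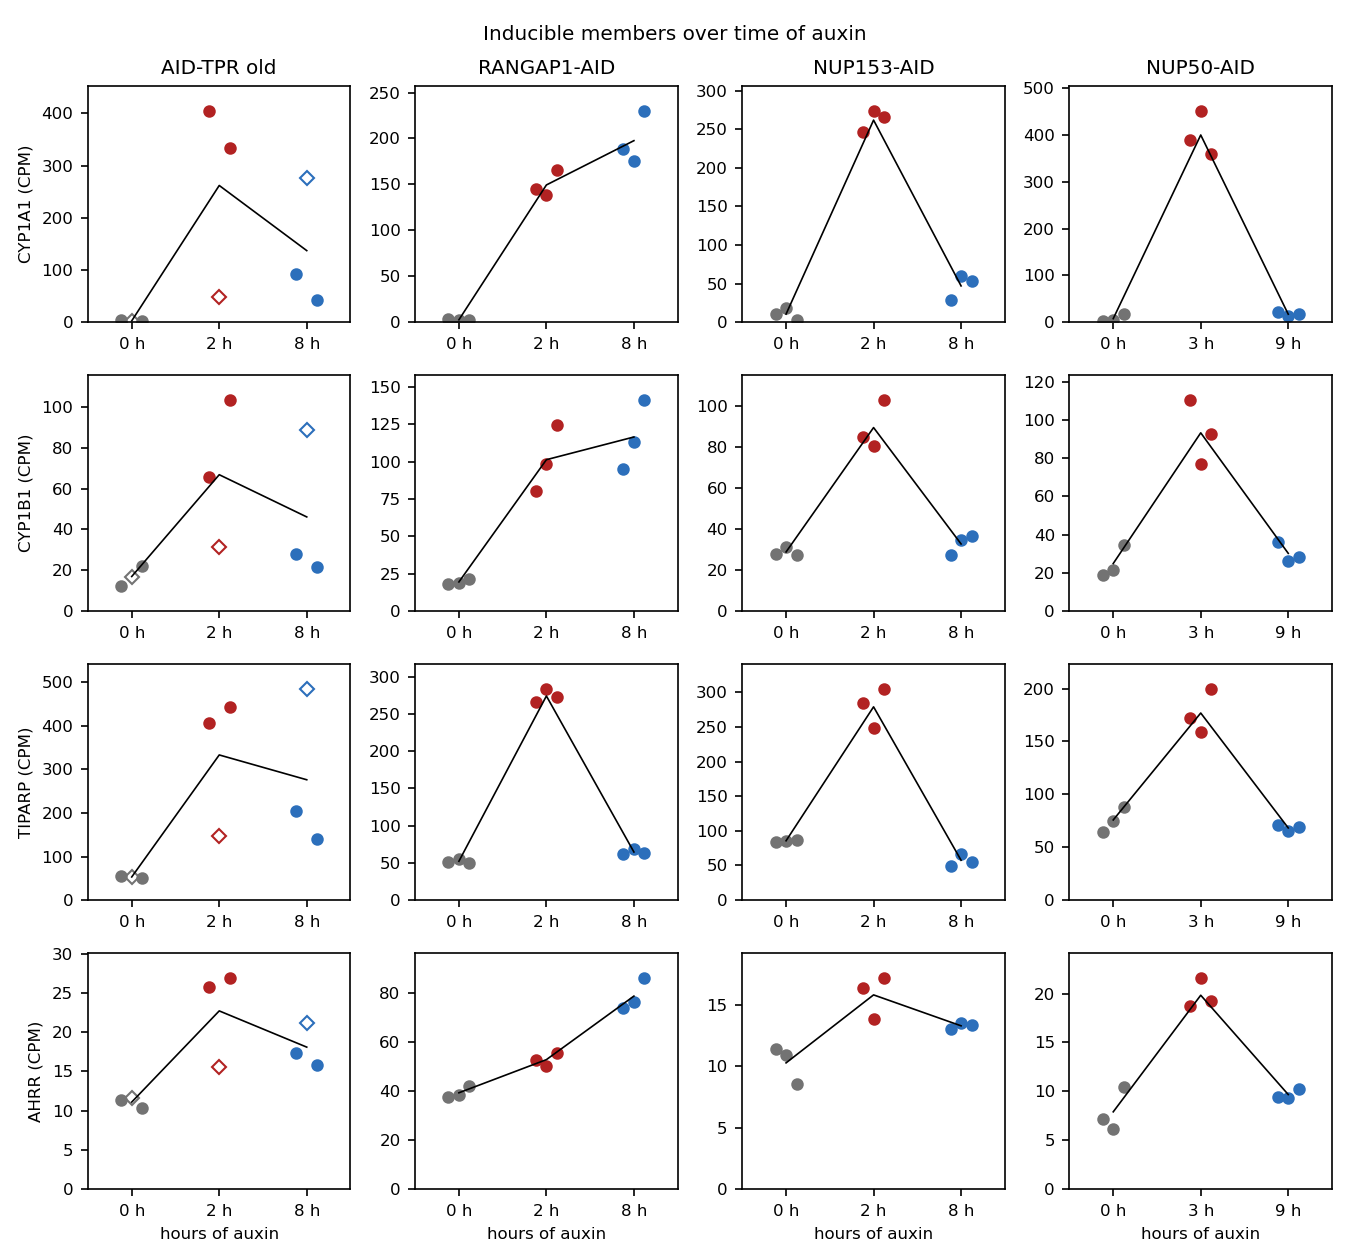
TMM-normalised CPM of CYP1A1, CYP1B1, TIPARP and AHRR, 1 row each, in the 4 lines with an early and a late auxin time, 1 column each, against hours of auxin. Points are libraries (open diamonds, old2) and lines join group means. In NUP153-AID and NUP50-AID cells CYP1A1 peaks at 2 or 3 h, and in RANGAP1-AID cells it is highest at 8 h.

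In AID-TPR old cells the old2 libraries carry much of the late differences. Without them the log2 fold changes at 8 h were 1.67 ± 0.19 for TIPARP, 0.50 ± 0.28 for CYP1B1 and 0.59 ± 0.19 for AHRR, where with them they were 2.39 ± 0.40, 1.45 ± 0.49 and 0.70 ± 0.18. At 2 h they were 3.02 ± 0.14, 2.31 ± 0.35 and 1.297 ± 0.15 without and 2.65 ± 0.34, 1.98 ± 0.38 and 1.03 ± 0.22 with them. TIPARP itself was at 54.7, 53.3 and 51.5 CPM untreated, 408, 148 and 444 CPM at 2 h and 204, 484 and 141 CPM at 8 h. As for CYP1A1, the old2 value resembled the other time. The same reading was made in 9 replicates of the other 3 lines with an early and a late time. There, 280 of 285 gene and replicate pairs kept the direction of the other replicates, the 5 exceptions falling in NUP153-AID replicate 1.

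ActD tested the same genes with RNA synthesis blocked, in libraries that the choice of members did not use. With ActD, auxin for 2 h in AID-TPR cells left CYP1A1 at 5.51, 6.40 and 18.2 CPM against 3.81, 4.21 and 17.9 CPM without auxin (0.19 ± 0.68). TIPARP was at 26.3, 38.7 and 29.5 CPM against 23.7, 33.7 and 28.3 CPM (0.14 ± 0.17). These groups overlapped, and in edgeR's quasi-likelihood test 0 of 7 members and 0% of all genes were called, CYP1A1 and TIPARP each at an adjusted p of 1. At an unadjusted p under 0.05 the test found 78 of the 17812 genes, DESeq2 called 0 genes, and 5 genes were called with same-numbered libraries as pairs, none of them a member. CYP1B1-AS1 was the member with the smallest unadjusted p in edgeR's test (0.016), at 1.38, 1.64 and 1.404 CPM with auxin against 1.011, 1.05 and 0.885 CPM (0.59 ± 0.19, adjusted p 1). The error of CYP1A1 was wide, replicate 3 of each group standing above the others, so a difference of its size cannot be set apart from 0 here. Whether the auxin difference itself differed with and without ActD was not tested.

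ActD alone was compared with the untreated AID-TPR old libraries, since their reads were counted in the same way as those of the ActD libraries. These untreated libraries also entered the choice of members, so the values are a description with no test. Of the 7 members 3 met the rule for a call, where 21.1% of all genes did, and nothing is read from that count. TIPARP was at 23.7, 33.7 and 28.3 CPM with ActD and 54.7, 53.3 and 51.5 CPM untreated (-0.90 ± 0.13), with all ActD libraries lower. They were also below the untreated libraries of the second AID-TPR set, at 168, 154 and 152 CPM. CYP1B1-AS1 was at 1.011, 1.05 and 0.885 CPM with ActD and 1.89, 1.44 and 1.98 CPM untreated (-0.86 ± 0.24), again without overlap. For CYP1A1 the direction depended on which untreated set was used. With ActD it was at 3.81, 4.21 and 17.9 CPM, above all untreated AID-TPR old libraries at 3.51, 2.64 and 1.58 CPM (1.795 ± 0.56) and below all untreated libraries of the second AID-TPR set at 104, 29.5 and 70.4 CPM. The size against AID-TPR old also rested on ActD replicate 3, without which the log2 fold change was 0.63. The other members differed less (AHRR 0.36 ± 0.17, AHR 0.26 ± 0.14, CYP1B1 -0.21 ± 0.24 and ARNT 0.09 ± 0.12).

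**Figure D4:**
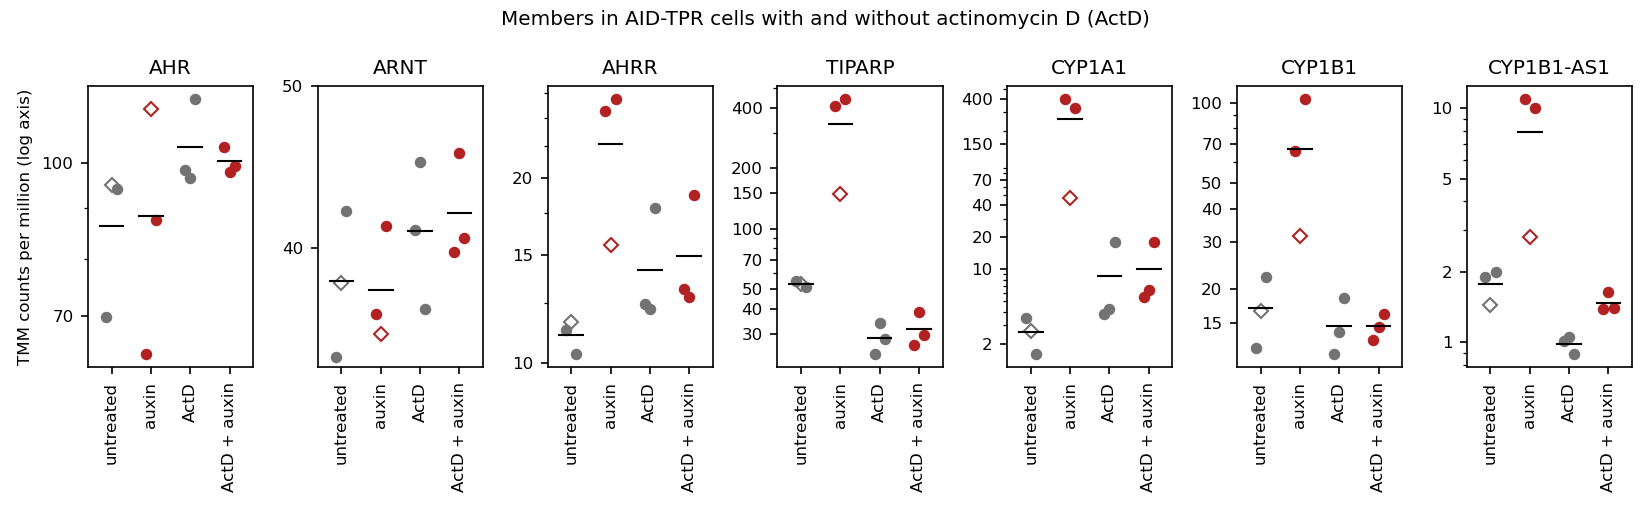
TMM-normalised CPM on log axes for the 7 genes in AID-TPR old cells, untreated and with auxin for 2 h, and in AID-TPR cells with ActD for 2 h without and with auxin. Points are libraries (open diamonds, old2), short lines group means. With ActD the CYP1A1 libraries sit at 3.81 to 18.2 CPM with or without auxin, and without ActD at 1.58 to 3.51 and 47.3 to 404 CPM.

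Before auxin, the members were compared among AID-TPR, AID-NXF1 and AID-GANP cells, whose reads were counted alike. These untreated libraries also entered the choice of members, through the auxin comparisons. Calls and adjusted p-values of members among the 3 lines are therefore a description and not an independent test. Over the 3 pairs of lines there was 1 call of a member, where 21.6% (AID-TPR against AID-NXF1), 27.3% (AID-TPR against AID-GANP) and 25.9% (AID-NXF1 against AID-GANP) of all genes were called. TIPARP was higher in AID-TPR, at 168, 154 and 152 CPM, than in AID-GANP, at 133, 98.1 and 68.4 CPM (0.68 ± 0.21, edgeR adjusted p 0.0152). Without AID-GANP replicate 3 the log2 fold change was 0.46 and the call was lost. CYP1A1 was 1.31 ± 0.62 log2 units higher in AID-TPR than in AID-NXF1 and 1.18 ± 0.62 higher than in AID-GANP, within overlapping libraries and not called (edgeR adjusted p 0.109 and 0.131). Both pairs were called without AID-TPR replicate 2 (log2 fold change 1.67 and 1.54), and the pair with AID-GANP also without AID-GANP replicate 1 (2.06). Within the untreated AID-NXF1 and AID-GANP cells the highest CYP1A1 library was 5.86 and 6.78 times the lowest. AHR and AHRR were lower in AID-NXF1 than in AID-TPR cells at an adjusted p of 0.00256 and 0.00776 in edgeR, with folds under the 1.3 that a call needs. They were lower in AID-NXF1 than in AID-GANP cells too (log2 fold change -0.32 ± 0.07 and -0.38 ± 0.09, edgeR adjusted p 0.00209 and 0.00451). A call needs a smaller ratio upwards than downwards, so it depends on which line is put first, and with AID-GANP first AHRR stood at 1.3007-fold and would be called. With all 3 pairs turned round the calls of members numbered 2. In AID-TPR against AID-NXF1, AHRR passed the fold without AID-NXF1 replicate 1 (log2 fold change 0.42), AID-NXF1 replicate 2 (0.40) or AID-TPR replicate 2 (0.39). Leaving out 1 library also brought calls of TIPARP between AID-NXF1 and AID-GANP (0.67 without AID-NXF1 replicate 3, 0.73 without AID-GANP replicate 1) and, without AID-GANP replicate 3, of CYP1B1-AS1 (-0.54 for AID-TPR and -0.51 for AID-NXF1, each against AID-GANP).

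In parental DLD-1 cells the groups also parted, and by their labels in the direction opposite to the tagged lines. The libraries labelled untreated had 206, 185 and 172 CPM of CYP1A1 and those labelled auxin 14.8, 14.5 and 9.76 CPM (-3.84 ± 0.13). TIPARP was at 269, 287 and 290.5 CPM in the first and 86.6, 90.9 and 71.0 CPM in the second (-1.77 ± 0.08). CYP1B1 was at 103, 99.2 and 84.7 and 42.7, 46.6 and 40.7 CPM (-1.14 ± 0.08). CYP1B1-AS1 and AHRR had the same order with smaller differences (-0.99 ± 0.08 and -0.18 ± 0.05), while AHR overlapped (0.04 ± 0.08) and ARNT was slightly the other way (0.07 ± 0.05). All auxin-labelled libraries were lower for 5 of 7 members, where 4.05% of all genes were, and 0.0561% of genes were called. These cells have no tag, and since the sources dispute which group received auxin, the size of the gap is given and not its direction.

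The other genes of the pathway number 37 (6 partners, 8 coregulators, 14 further targets and 9 enzymes of tryptophan metabolism), of which 33 passed the filter. Over the 11 tagged comparisons, 33 of 363 gene and comparison pairs were called (9.09%, where 4.15% of all pairs were), 31 of them higher with auxin and 2 lower, in 13 genes. The list was assembled with earlier results of these data known, and comparisons of the same line share their untreated libraries. Of the partners, which include the chaperones HSP90AA1 and HSP90AB1, 0 of 6 genes was called in any tagged comparison. Coregulators gave 1 call, NRIP1 in RANGAP1-AID cells at 8 h (2.01 ± 0.31), and tryptophan enzymes gave 2. The other 30 calls were in the further targets, 28 of them higher. The NRIP1 call rests on low counts, a mean of 20, at 0.235 ± 0.073 CPM untreated and 0.934 ± 0.153 CPM with auxin. Among the further targets, the 5 calls of CYP1A2 rest on mean counts of 9 to 21.2, with overlapping libraries in AID-GANP cells. UGT1A1 had a mean of 20 in RANGAP1-AID cells at 8 h. In AID-NXF1 cells UGT1A1 had a mean of 32.2 and UGT1A6, which shares reads with it, 29.3. The 9.09% includes all of these calls.

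Calls were most frequent in RANGAP1-AID cells at 8 h (9 of 33 genes) and in AID-GANP cells (8 of 33), which are also comparisons with many calls among all genes. EREG, a secreted ligand of the EGF receptor, rose in RANGAP1-AID cells at 8 h (1.804 ± 0.13, edgeR adjusted p 1.64e-05), from 312, 378 and 467 CPM to 1305, 1295 and 1449 CPM. In the AID-NXF1 line EREG fell, with 970.1 ± 179 untreated and 573 ± 94.4 CPM with auxin (-0.78 ± 0.13, edgeR adjusted p 0.00116). ABCG2, an efflux transporter, rose in the same RANGAP1-AID comparison, from 3.27, 4.20 and 3.41 CPM to 10.0, 9.17 and 9.52 CPM (1.397 ± 0.12, edgeR adjusted p 4.64e-05). SLC7A5, which carries large neutral amino acids, rose there as well, with 429.5 ± 41.5 untreated and 748 ± 10.3 CPM with auxin (0.80 ± 0.08). IL4I1, an amino acid oxidase that makes indole products of tryptophan, rose there by less (0.50 ± 0.09). These RANGAP1-AID calls remained under all 11 alternatives. SLC7A5 was also called higher in AID-GANP cells at 3 h (0.45 ± 0.12) and in NUP50-AID cells at 3 h (0.56 ± 0.09) and 9 h (0.43 ± 0.07). ABCG2 was also called higher in AID-GANP cells at 3 h (0.53 ± 0.13) and in NUP153-AID cells at 8 h (0.96 ± 0.10).

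In AID-TPR old cells at 8 h, NFE2L2, the antioxidant response regulator known as NRF2, rose by 0.79 ± 0.15 log2 units. ALDH3A1, an aldehyde dehydrogenase, rose by 0.70 ± 0.13 and NQO1, a quinone reductase, by 0.47 ± 0.11. Each of these 3 calls hung on single libraries. The NFE2L2 call was lost without old1 or old3 at 8 h or untreated old1 or old2, over alternatives that ranged from 0.65 to 0.94. The ALDH3A1 call was lost without old3 at 8 h or any one of the 3 untreated libraries (range 0.57 to 0.82). The NQO1 call was lost without old1 or old3 at 8 h, without any one of the untreated libraries, and with library sizes alone (range 0.34 to 0.53). ALDH3A1 was also called higher in AID-GANP cells at 3 h (0.48 ± 0.10) and in RANGAP1-AID cells at 8 h (0.55 ± 0.10). NFE2L2 was also called higher in RANGAP1-AID cells at 8 h (0.38 ± 0.07). In AID-GANP cells KMO, of the kynurenine route, rose by 0.56 ± 0.11 and UGT1A1, a glucuronosyltransferase, by 0.46 ± 0.14. UGT1A1 and UGT1A6 share exons and reads, so their calls are not separate. The UGT1A1 call was lost without replicate 2 or 3 of either group and with library sizes alone (range 0.35 to 0.54). PTGS2, the inducible prostaglandin synthase, fell in NUP153-AID cells at 8 h, with 2.33 ± 0.303 untreated and 0.990 ± 0.227 CPM with auxin (-1.23 ± 0.22). That call was lost without replicate 2 or 3 at 8 h, without untreated replicate 1, and with replicates as blocks (range -1.41 to -1.08). In AID-GANP cells PTGS2 was called higher at 3 h (1.14 ± 0.25, edgeR adjusted p 0.00647). All auxin libraries were also higher in AID-TPR old cells at 2 h (1.31 ± 0.24) and 8 h (1.41 ± 0.34), neither called. The PTGS2 libraries overlapped in the other tagged comparisons. With same-numbered libraries as pairs, where the numbers were found to pair, calls in the list numbered 5 instead of 2 in RANGAP1-AID at 2 h (2.63% of all genes called in the paired fit), 4 instead of 0 in NUP153-AID at 2 h (0.752%), and 2 instead of 0 in AID-TPR at 2 h (2.34%). In edgeR's test without pairs, those last 2 comparisons had 667 and 1679 genes at an unadjusted p under 0.05 among all genes, and DESeq2 called 54 and 202 of all genes.

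CYP1A1 lies among genes whose values were also read along the chromosome. Within 100 kb of its ends the annotation holds 7 genes, 5 of which passed the filter. CYP1A2, its liver paralog, with its start 23.31 kb away, had positive log2 fold changes of 0.99 to 3.54 over 11 comparisons, at no more than 1.298 CPM in any library. EDC3, an mRNA decapping factor 29.24 kb away on the other side, ranged from 0.04 to 1.71, with all auxin libraries higher in 6 of 11 comparisons. It was above 1 in RANGAP1-AID cells (1.17 ± 0.07 at 2 h and 1.71 ± 0.06 at 8 h) and in NUP50-AID cells at 3 h (1.37 ± 0.11), and lay within its error of 0 in AID-NXF1 (0.04 ± 0.07) and AID-GANP cells (0.06 ± 0.09). CSK, a kinase that restrains SRC, 56.54 kb away, ranged from 0.13 to 1.005 and was higher without overlap in 8 of 11. CLK3, a splicing kinase whose start is 127.04 kb away, ranged from 0.10 to 1.06 and was higher without overlap in 7 of 11. The annotated CLK3 and EDC3 overlap on opposite strands, so reads of one can have been counted for the other. This holds most of all where overlapping genes shared reads, as in RANGAP1-AID cells. In DLD-1 the libraries labelled auxin were lower for EDC3 (-0.57 ± 0.05) and CLK3 (-0.57 ± 0.06), as for CYP1A1. ENSG00000261606, 90.69 kb away and at no more than 2.22 CPM, ranged from -0.79 to 2.20, and 2 genes were below the filter. Over the 11 comparisons, from 4.71% (NUP153-AID at 2 h) to 21.9% (RANGAP1-AID at 8 h) of all genes had all auxin libraries higher. Comparisons of the same line set share untreated libraries, so nothing is read from the counts of the neighbours.

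**Figure D5:**
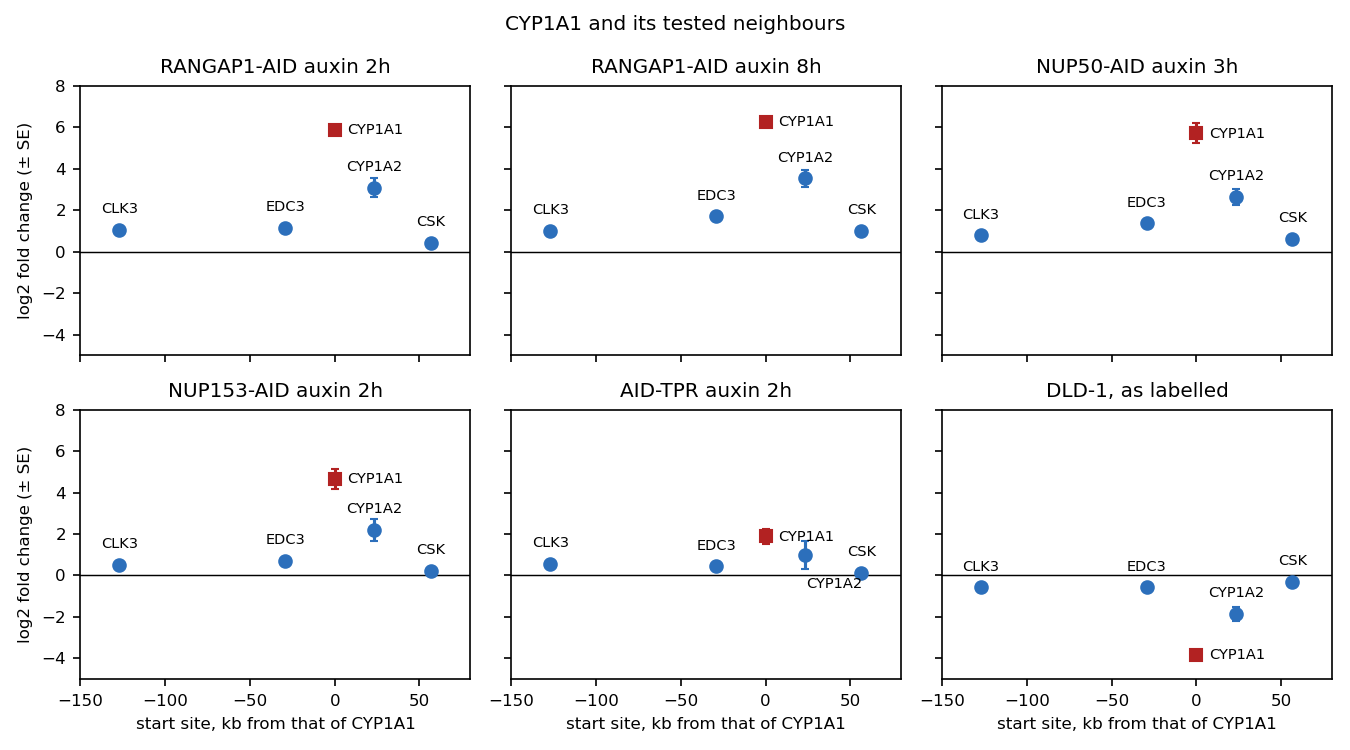
Log2 fold change, auxin minus untreated, with standard errors, of CYP1A1 and 4 of its 5 tested neighbours (ENSG00000261606 not drawn) against the distance of their start sites from that of CYP1A1 in kb, in 6 comparisons. The distance axis runs along the reference strand. CYP1A1 is the highest point in each panel of a tagged line, and EDC3 and CLK3 to its left, which overlap each other, are above 1 in both RANGAP1-AID panels.

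How alike the patterns were was read from log2 CPM, centred on the untreated libraries of the same line set, over the 54 libraries of tagged lines without ActD. These libraries share untreated groups and depth, and the correlations are descriptions. CYP1A1 correlated with CYP1B1 (Pearson r 0.91), CYP1B1-AS1 (0.91) and AHRR (0.89), less with TIPARP (0.73), and with AHR (-0.25) and ARNT (-0.28) at a low and negative value. Among 14581 genes with enough counts that are not members, the most alike to CYP1A1 were ANKRD13C (r 0.87), PROSER2 (0.83) and ADGRF1 (0.83). Those most like TIPARP were PPP1R15A (0.92), a regulator of the integrated stress response, LINC00511 (0.90), and PRDM1 (0.89), a transcriptional repressor. Named after their values were seen, EDC3 was the most like CYP1B1 (0.85), CLK3 the most like CYP1B1-AS1 (0.88) and ALDH1A3, a retinaldehyde dehydrogenase, the most like AHRR (0.80). EDC3 and CLK3 overlap each other, as CYP1B1 and CYP1B1-AS1 do, so these likenesses are not separate. In RANGAP1-AID and NUP153-AID cells PRDM1 was above untreated at 2 h and below it at 8 h without overlap, with log2 fold changes of 2.78 at 2 h and -0.58 at 8 h in RANGAP1-AID cells and 1.26 and -1.45 in NUP153-AID cells. In AID-TPR old cells it was above untreated at both times (1.94 and 1.42), as TIPARP was there.

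The summed level of the epithelial markers moved with auxin in 3 line sets. In AID-NXF1 cells it was 11305 to 12926 CPM untreated and 13344 to 14793 CPM with auxin, in AID-GANP cells 7188 to 7568 CPM and 8644 to 9452 CPM, and in AID-TPR old cells 9766 to 11949 CPM and, at 2 h, 12160.4 to 14363 CPM. In RANGAP1-AID cells at 8 h the ranges overlapped, at 5312 to 5578 CPM untreated and 5384 to 5689 CPM with auxin. Markers of other cells summed to at most 2.46 CPM in any library. The part of the marker change in the differences of the 7 genes was not tested.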

How the data were processed

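Total RNA was depleted of ribosomal RNA, made into stranded libraries and sequenced, and the study describes each group as independent triplicates. The authors aligned the reads to GRCh38 and deposited raw read counts per Ensembl gene, 1 file for each library. The submitters' processing notes name STAR 2.6.1c, featureCounts 1.5.2 and CASAVA 1.8.2, and the strand setting of the counting is not given in the sources used here. Each of the 58051 genes has an Ensembl ID, and 56948 matched the GENCODE annotation of GRCh38. Depth was 18943661 to 55411411 counts per library, and TMM normalisation factors lay between 0.888 and 1.12.

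From these counts, 17812 genes were kept that exceeded 1 CPM in more than 5% of libraries, those with ActD (6 of 66) left aside. CPM values are TMM-normalised over all 66 libraries. Log2 fold changes, standard errors and p-values came from edgeR 4.0.16 (quasi-likelihood test, R 4.3.3), with 1 fit per comparison of 6 libraries and Benjamini-Hochberg adjustment over all tested genes. The 3 untreated lines were fitted together. The fits were tested on simulated data with known fold changes. The members and lists were chosen with earlier results of these data known. Genes named beside the members were the 10 pathway genes with the largest log2 fold change among those called, averaging 50 counts or more and without overlapping groups, the 3 genes most like CYP1A1 and most like TIPARP, the tested neighbours of CYP1A1, and the tagged genes. NRIP1 and those said to be so were named after their values were seen.

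Same-numbered libraries were checked for pairing by the correlation of their deviations from the group means. In 7 of 14 comparisons (AID-NXF1, AID-GANP, AID-TPR, RANGAP1-AID at both times, NUP153-AID at 2 h and ActD with auxin) every pair was above 0.1. The replicate block was fitted as an alternative in every comparison, also where the numbers did not pair. The other alternatives were RLE scaling, library sizes alone, DESeq2 1.42.0, no filter on low counts, and leaving out each library. Leaving out both old2 libraries was chosen after seeing the data.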

Additional observations from a re-analysis of the deposited data

Results flagged for a closer look

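For 5 genes, all libraries labelled auxin were below all libraries labelled untreated in parental DLD-1 cells, while at 2 or 3 h tagged lines had all auxin libraries above the untreated ones. CYP1A1 had a log2 fold change of -3.84 in DLD-1 and of 1.88 to 6.68 in 7 tagged comparisons. CYP1B1 had -1.14 against 0.53 to 2.37 in 6, CYP1B1-AS1 -0.99 against 0.63 to 2.37 in 7, TIPARP -1.77 against 0.75 to 2.65 in 7, and AHRR -0.18 against 0.33 to 1.33 in 5. The difference between lines was not tested, and the treatments of the DLD-1 groups are disputed between the labels and the study's own table.

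TIPARP at 8 h was lower than untreated in all NUP153-AID libraries (-0.58) and higher in all libraries of 2 other lines (0.30 in RANGAP1-AID and 2.39 in AID-TPR old). ARNT was lower in all NUP50-AID libraries at 3 h (-0.21) and higher in all of AID-GANP at 3 h (0.06) and of DLD-1 by its labels (0.07), differences close to their standard errors in the latter groups. EREG was lower in all AID-NXF1 libraries at 2 h (-0.78). It was higher in all 2 h libraries of AID-TPR old (1.15), RANGAP1-AID (1.22) and NUP153-AID cells (0.43, not called). These differences between lines were not tested.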

How the results depend on the processing

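Of 854 recomputed log2 fold changes of the members after auxin, 840 moved by less than the spread between replicates. The sign turned in 1, ARNT in AID-GANP cells with library sizes alone (-0.051), where this scaling also lowered AHRR to 0.22 and AHR to 0.15. The others that moved belong to AID-TPR old at 8 h without old2 (CYP1A1 4.67, TIPARP 1.66, CYP1B1 0.50, CYP1B1-AS1 0.52 without the 8 h library alone) and to NUP50-AID without untreated replicate 3 (CYP1A1 7.02 and 2.44, CYP1B1-AS1 1.96). The 33 calls of pathway genes became 64 with no filter and 58 with the replicate block, lay between 26 and 45 with the other scalings and DESeq2, and between 28 and 41 without 1 library. The 58 include calls from comparisons whose numbers did not pair. These were 4 and 8 in AID-TPR old at 2 and 8 h, 7 and 4 in NUP50-AID at 3 and 9 h, and 1 in NUP153-AID at 8 h. In AID-GANP cells alone, library sizes gave 4 calls instead of 8. Members called with auxin under ActD remained 0 in each of the 11 alternatives. With ActD alone, the 3 calls became 2 with DESeq2 and with the block, and 1 to 3 without 1 library. The 1 call between untreated lines became 2 with library sizes alone, 4 with no filter, 4 with the replicate block and 2 with each pair turned round (chosen after seeing the data), and 1 to 4 without 1 library. Same-numbered untreated libraries did not pair there, so the block adds only a shared number. The motif stood in 2 members in its longer form, instead of 5. Of the 6 genes most like CYP1A1 and TIPARP, 4 remained in the first 3 places with Spearman's rho and 5 with DLD-1 added.

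Across scalings, DESeq2, the filter and the block, calls over all genes moved by over 1.5 times in these comparisons, and the cause was not tested. DESeq2, no filter and the replicate block gave 398, 836 and 292 calls instead of 81 in AID-TPR old at 2 h, 1800, 1872 and 1682 instead of 643 at 8 h (1074 with library sizes alone), and 202, 282 and 416 instead of 91 in AID-TPR. They gave 194, 382 and 468 instead of 105 in RANGAP1-AID at 2 h, 54, 102 and 134 instead of 7 in NUP153-AID at 2 h (4 with library sizes alone), and 392, 771 and 75 instead of 238 at 8 h. They gave 102, 212 and 181 instead of 39 in NUP50-AID at 3 h, 164, 363 and 524 instead of 66 at 9 h, and 24, 52 and 48 instead of 10 in DLD-1. Without the old2 libraries, AID-TPR old gave 6 calls at 2 h and 2316 at 8 h. The numbers did not pair in AID-TPR old, NUP153-AID at 8 h, NUP50-AID or DLD-1. The block added calls of CYP1A1 in AID-TPR against both other untreated lines and of TIPARP in AID-NXF1 against AID-GANP, ended that of CYP1A1 with ActD alone, and changed no other call of a member.

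With 3 libraries in a group, a single library can end or bring a call. One edited line stands for each protein, each line set without ActD has 1 untreated group, and counts of overlapping genes differ between 33 libraries and the other 33. For genes near 1 CPM, such as CYP1A2, depth limits what can be seen.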
